A study of Mus musculus with 2 samples.

Results

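The 10 genes described here code for the core of Polycomb repressive complex 2 (PRC2) and for the enzymes that write, maintain or oxidise DNA methylation. They were chosen by name (Ezh1, Ezh2, Eed, Suz12, Dnmt1, Dnmt3a, Dnmt3b, Uhrf1, Tet2 and Tet3), and all 10 were found among the 21878 gene symbols of the deposited tables. PolyA RNA of mouse liver was sequenced from 2 libraries, 1 per group. The TSA library came from FVB/N mouse liver after hydrodynamic injection of c-Myc and treatment with TSA, which the labels give only by that abbreviation, with no dose or time. The untreated library came from FVB/N mouse liver after the same injection, with treatment given as none. Hydrodynamic injection is a fast, large-volume injection into the tail vein that carries plasmid DNA into liver cells, and both groups carry the c-Myc delivery. The labels give no age or sex, and do not say whether a sample was tumour, surrounding liver or a mix, or came from 1 animal. The hepatocyte genes Alb and Apob were abundant in both libraries, with 40496 and 558 FPKM in the TSA library against 1280 and 123 FPKM in the untreated library (FPKM are counts scaled to the length of the gene model and to the total of the library).

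PRC2 methylates a lysine in the tail of histone H3, a mark of silenced developmental genes. EZH1 or EZH2 is its catalytic subunit, and EED and SUZ12 are needed for activity. DNMT3A and DNMT3B place methyl groups on cytosines of CpG sites, DNMT1 copies the pattern onto new DNA after replication, and UHRF1 guides DNMT1 to half-methylated sites. TET enzymes oxidise methylcytosine, which starts its removal. In normal adult liver most hepatocytes rest, and EZH2, DNMT1 and UHRF1 are known as products of dividing cells, while EZH1 is known to persist in resting tissue.

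Total counts were 17088227 in the TSA library and 17281523 in the untreated library, over 14958 and 15292 detected genes. With 1 library per group no test across conditions exists, no p-value is given, and the differences have no replicate check. Intervals in parentheses are 95% intervals for counting error alone. They do not cover error in the gene model lengths, on which each comparison of level between genes rests. PCR copies of a molecule could not be told from separate molecules, so even the counting error may be larger than the intervals show. After scaling by TMM (a trimmed mean of log ratios, built on the assumption of mostly equal genes), a gene was called lower or higher in the TSA library at a difference of at least 2-fold with an interval that excluded equality. By this rule 27.4% of the 13027 genes tested were called lower and 26.0% higher. Most genes tested were thus called different, so the assumption behind TMM is not met by its own calls. The size of each difference therefore depends on the scaling, as for Uhrf1, 45.3-fold lower with TMM and 81.8-fold by total counts. The libraries were made from whole samples, so fewer cells of a type and less RNA per cell cannot be told apart.

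Of the 10 genes 7 were called lower with TSA and none was called higher. They were Uhrf1, Dnmt3a, Dnmt1, Ezh2, Dnmt3b, Suz12 and Tet3, while Eed, Ezh1 and Tet2 were neither. The median log2 ratio of the 10 genes, TSA over untreated, was -2.26, against -0.11 for all genes tested. Scaled by total counts, 9 of the 10 were lower, all but Tet2, and none was higher, where 48.7% of all genes were lower and 16.0% higher. Together the 10 genes summed to 30.1 FPKM in the TSA library and 286 FPKM in the untreated library.

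**Figure D1:**
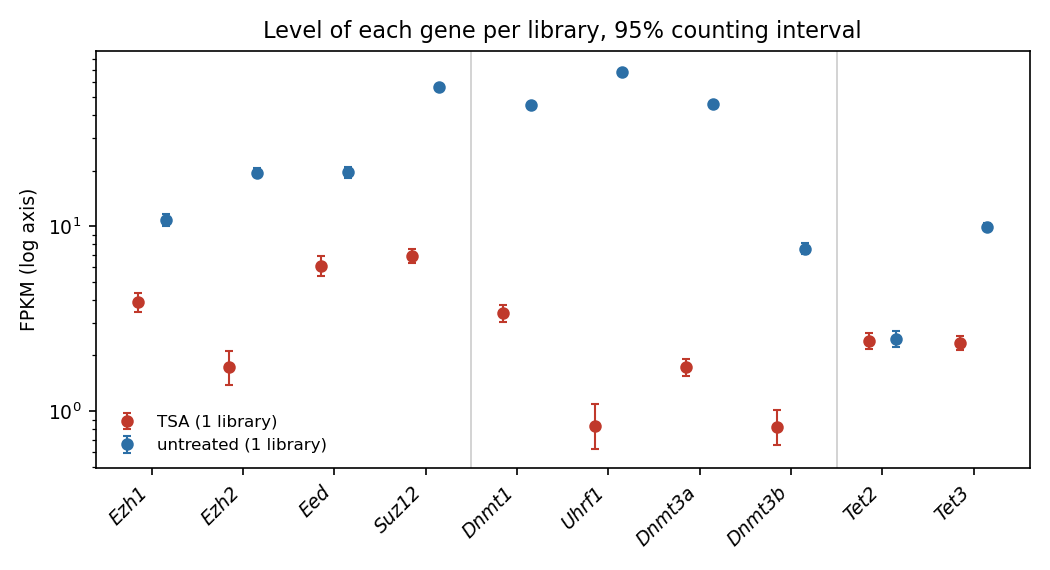
FPKM of the 10 genes (log axis) in the TSA library (red, left of each pair) and the untreated library (blue), with 95% counting intervals. Tet2 lies at 2.39 and 2.46 FPKM, and on this scale, set by total counts, each of the other 9 is lower in the TSA library, Uhrf1 by most (0.833 against 68.2 FPKM).

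Because several of these genes were lower together, their start site regions were read from RefSeq (build GRCm38.p6, 250 bases before to 50 after each listed start, all 10 genes matched, 15 windows). They were searched on both strands for an E2F-type octamer, the kind of site bound by E2F factors that switch on replication genes, in its spellings TTTCCCGC, TTTGGCGC, TTTCGCGC and TTTGCCGC. The octamer stood in at least 1 window of 4 of the 10 genes, Ezh2, Suz12, Dnmt1 and Uhrf1. These 4 were called lower, and so were Dnmt3a, Dnmt3b and Tet3, whose windows held none of the 4 spellings, like those of Eed, Ezh1 and Tet2. The octamer occurred in 2.6% of the 27025 genes in the table, in 2.26% of all 32851 windows, and in 5.06% of the 3837 windows with at least 30 CpG sites. The MYC-type E-box CACGTG, present in 8.09% of genes, stood in 1 of the 10, Dnmt3a, at the third listed start, where it began 80 bases before that start. A match is a run of letters and not a measured binding site. The 4 windows that hold the octamer are given 5′ to 3′ on the gene's strand with the octamer in capitals, followed by the Ezh1 window, shown as the paralog of Ezh2 in which none of the 4 spellings occurs.
Ezh2 (chr6:47594981-47595280, minus strand): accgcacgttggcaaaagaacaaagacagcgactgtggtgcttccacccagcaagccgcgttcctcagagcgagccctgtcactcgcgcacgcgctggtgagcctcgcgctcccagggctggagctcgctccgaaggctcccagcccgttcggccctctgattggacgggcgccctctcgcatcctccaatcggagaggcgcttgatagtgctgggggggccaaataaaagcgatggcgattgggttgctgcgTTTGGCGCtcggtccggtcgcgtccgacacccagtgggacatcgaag
Suz12 (chr11:79992856-79993155, plus strand): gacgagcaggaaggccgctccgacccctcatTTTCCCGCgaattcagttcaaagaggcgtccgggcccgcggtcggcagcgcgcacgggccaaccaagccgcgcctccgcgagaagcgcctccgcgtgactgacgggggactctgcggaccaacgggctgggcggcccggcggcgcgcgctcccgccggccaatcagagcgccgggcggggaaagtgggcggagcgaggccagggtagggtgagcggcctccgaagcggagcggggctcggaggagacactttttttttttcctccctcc
Dnmt1 at the third listed start (chr9:20952574-20952873, minus strand): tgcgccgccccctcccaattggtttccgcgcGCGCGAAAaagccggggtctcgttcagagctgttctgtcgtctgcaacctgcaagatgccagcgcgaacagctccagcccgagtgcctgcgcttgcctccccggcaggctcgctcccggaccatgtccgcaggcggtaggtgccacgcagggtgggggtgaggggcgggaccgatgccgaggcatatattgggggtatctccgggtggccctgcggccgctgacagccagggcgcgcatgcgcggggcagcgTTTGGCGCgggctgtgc
Uhrf1 at the second listed start (chr17:56304063-56304362, plus strand): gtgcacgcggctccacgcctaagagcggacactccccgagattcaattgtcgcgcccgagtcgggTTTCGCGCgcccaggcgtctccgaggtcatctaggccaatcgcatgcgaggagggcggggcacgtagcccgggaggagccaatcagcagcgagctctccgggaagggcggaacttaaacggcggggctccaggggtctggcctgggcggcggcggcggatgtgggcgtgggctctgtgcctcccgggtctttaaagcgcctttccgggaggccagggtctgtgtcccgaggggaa
Ezh1 (chr11:101226414-101226713, minus strand): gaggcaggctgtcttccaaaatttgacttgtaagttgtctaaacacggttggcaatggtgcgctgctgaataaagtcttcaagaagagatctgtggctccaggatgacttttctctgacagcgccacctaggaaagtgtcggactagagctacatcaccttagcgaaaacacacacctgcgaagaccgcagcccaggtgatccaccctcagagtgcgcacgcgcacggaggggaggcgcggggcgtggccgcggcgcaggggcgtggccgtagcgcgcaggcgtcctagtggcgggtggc
The Ezh2 octamer began 3 bases after the start, and that of Uhrf1 185 bases before it. In Suz12 it began 219 bases before the start. Dnmt1 held 2 octamers, 1 on the opposite strand 219 to 212 bases before the third listed start and 1 at 33 to 40 bases after it.

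The 2 catalytic subunits of PRC2 differed from each other. Ezh2, the more active methyltransferase of the pair, had 91 counts (1.73 FPKM) in the TSA library and 1041 counts (19.5 FPKM) in the untreated library, a level 6.27-fold (5.06 to 7.85) lower with TSA. Ezh1, its paralog, had 279 counts (3.88 FPKM) with TSA and 788 counts (10.8 FPKM) without, 1.55-fold (1.35 to 1.78) below the untreated level and not called. Ezh2 was thus above Ezh1 per length in the untreated library and below it in the TSA library. Ezh1 made up 69.2% (63.9 to 74.2) of the per-length sum of the pair with TSA and 35.7% (33.6 to 37.8) without. The balance of Ezh1 to Ezh2 was 2.25 with TSA and 0.555 without, a 4.05-fold (3.12 to 5.28) difference that no scaling between libraries can move.

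The structural subunits also separated. Suz12, which holds the complex together, had 518 counts (6.93 FPKM) in the TSA library and 4271 counts (56.5 FPKM) in the untreated library, and was 4.52-fold (4.12 to 4.96) lower. Eed, the subunit that reads the methyl mark and stimulates the enzyme, had 260 counts (6.08 FPKM) with TSA and 846 counts (19.6 FPKM) without, 1.78-fold (1.55 to 2.06) below the untreated level and not called. By the authors' gene model lengths the level of Suz12 was 1.14 times that of Eed with TSA, within counting error, and 2.89 times without. Eed shares 6.8% of its annotated exon bases with a transcript on the opposite strand (E230029C05Rik in GENCODE M21), and no source used here states whether counting used strand.

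The histone-binding subunits, which PRC2 shares with other chromatin complexes, were both lower. Rbbp7 had 24.4 FPKM with TSA and 198 FPKM without, 4.49-fold (4.2 to 4.81) lower, and Rbbp4 had 23.8 and 91.6 FPKM, 2.13-fold (2.02 to 2.25) lower. Of 6 accessory subunits, which steer PRC2 to its sites, 3 were lower, 1 was higher and 2 were neither, with a median log2 ratio of -0.76. Aebp2 was 3.3-fold (2.93 to 3.72) lower, Mtf2 2.85-fold (2.37 to 3.44) lower and Phf19 2.03-fold (1.28 to 3.34) lower, the last on 24 counts with TSA and 89 without. Rbbp4 and Phf19 lay close to the 2-fold line, at log2 ratios of -1.09 and -1.02. Neither reaches it with DESeq2 size factors, which add 0.105 to every log2 ratio. Phf1, a Polycomb-like paralog of Mtf2 and Phf19, was 2.3-fold (1.89 to 2.79) higher, but 1.27-fold and not called with total counts. Jarid2 and Epop, listed in the files under an older symbol, lay 1.39-fold (1.24 to 1.57) and 1.42-fold (1.02 to 1.98) below the untreated level and were not called. Scaled by total counts, 5 of the 6 were lower and none was higher.

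Uhrf1, the guide of maintenance methylation, had the lowest ratio of the 10 genes. It had 52 counts (0.833 FPKM) in the TSA library and 4301 counts (68.2 FPKM) in the untreated library, and was 45.3-fold (34.5 to 60.8) lower. Without treatment it was the most abundant of the 10 per length, and with TSA only Dnmt3b, at 0.825 FPKM, lay below it, within counting error. Of all 13027 genes tested, 206 had a lower ratio. Dnmt1, the maintenance methyltransferase that UHRF1 recruits, had 365 counts (3.38 FPKM) with TSA and 4957 counts (45.3 FPKM) without, 7.44-fold (6.69 to 8.3) lower. The level of Uhrf1 was 0.247 times that of Dnmt1 with TSA and 1.5 times without, a 6.09-fold (4.53 to 8.33) difference in their balance.

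Other genes that act with DNMT1 at the replication fork were mostly lower as well. Of 8 such genes 7 were lower and none was higher, with a median log2 ratio of -4.14, where 27.4% of all genes were lower. The mildest of the 7 lay at a log2 ratio of -1.04 and does not reach 2-fold with DESeq2 size factors. Cdca7l, a relative of the gene for CDCA7, which activates the remodeler HELLS, was 40.1-fold (25.9 to 65.9) lower. Pclaf, a PCNA-bound protein that helps load DNMT1, had 5 counts with TSA and 302 without and was 33.1-fold (14.0 to 103) lower. Pcna, the sliding clamp of replication, was 4.53-fold (4.12 to 4.99) lower, and Usp7, a deubiquitinase that binds DNMT1 and UHRF1, lay 1.7-fold (1.61 to 1.81) below the untreated level and was not called.

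Dnmt3a, a de novo methyltransferase, had the most counts of the 10 genes in the untreated library. It had 334 counts (1.73 FPKM) with TSA and 8986 counts (46.0 FPKM) without, and was 14.7-fold (13.2 to 16.5) lower. Dnmt3b, its paralog, had 85 counts (0.825 FPKM) with TSA and 788 counts (7.56 FPKM) without, and was 5.08-fold (4.06 to 6.43) lower. By the authors' gene model lengths Dnmt3a was level with Dnmt1 without treatment, at 1.01 times its FPKM, and at 0.512 times with TSA. The balance of Dnmt3a to Dnmt1 was thus 1.98-fold (1.7 to 2.31) lower with TSA. Dnmt3b made up 32.3% (27.1 to 37.8) of the per-length sum of Dnmt3a and Dnmt3b with TSA and 14.1% (13.2 to 15.02) without. Counts per gene do not separate the isoforms of Dnmt3a. The germline cofactor gene Dnmt3l had 0 counts in both libraries, which allows up to 3 counts in each, and Trdmt1, a relative that methylates transfer RNA, lay 1.23-fold (0.912 to 1.68) below the untreated level.

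Tet2 was the sole gene of the 10 whose ratio lay above that of the median gene. It had 384 counts (2.39 FPKM) in the TSA library and 399 counts (2.46 FPKM) in the untreated library, a ratio of 1.76 (1.52 to 2.03) with TMM and 0.973 with total counts, and was called with neither. Tet3 had 529 counts (2.34 FPKM) with TSA and 2271 counts (9.94 FPKM) without, and was 2.35-fold (2.14 to 2.59) lower. By the authors' gene model lengths (9383 bases for Tet2 and 13227 for Tet3) the pair was therefore about level with TSA. Tet2 made up 50.6% (47.2 to 53.9) of the per-length sum with TSA, against 19.9% (18.2 to 21.6) without treatment. The GENCODE M21 exon lengths, 16870 and 16695 bases, would place Tet2 below Tet3 with TSA. Tet1, a further family member, best known from embryonic cells, had 2 counts with TSA and 102 without, 27.9-fold (7.54 to 234) lower. Against Dnmt1, Tet2 stood at 0.709 times its FPKM with TSA and 0.0543 times without, a 13.1-fold (10.9 to 15.6) difference.

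**Figure D2:**
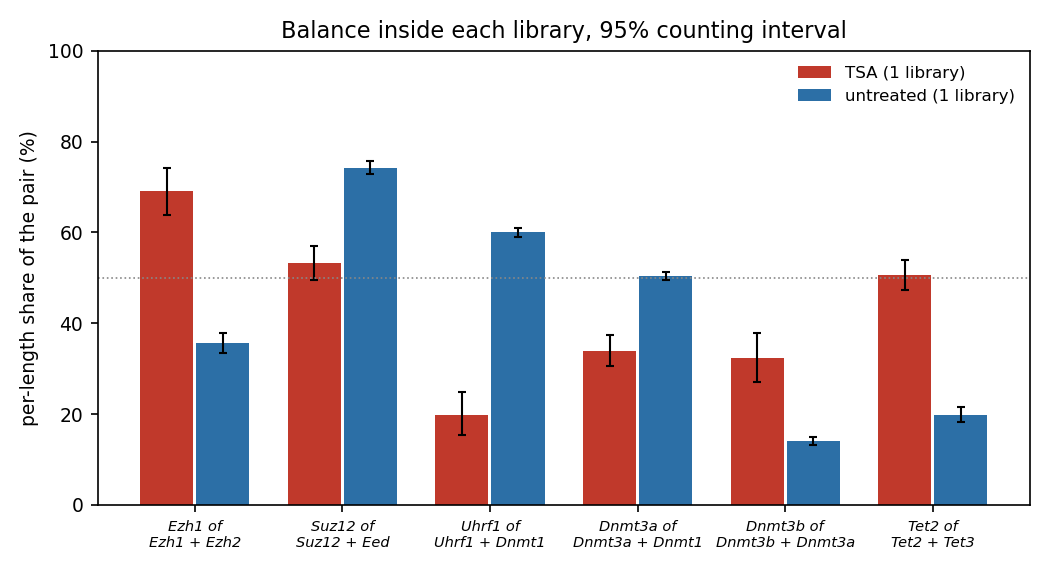
Per-length share of the first gene in each of 6 pairs (percent of the summed FPKM of the pair) in the TSA library (red) and the untreated library (blue), with 95% counting intervals. The shares of Ezh1, Dnmt3b and Tet2 are larger with TSA and those of Suz12, Uhrf1 and Dnmt3a smaller, and the intervals do not meet in any of the 6 pairs.

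By the ratio of TSA to untreated the order, lowest first, was Uhrf1, Dnmt3a, Dnmt1, Ezh2, Dnmt3b, Suz12, Tet3, Eed, Ezh1 and Tet2. Adjacent genes were compared by the ratio of their ratios, which scaling does not move. Uhrf1 lay 3.07-fold (2.28 to 4.21) below Dnmt3a, Dnmt3a 1.98-fold below Dnmt1, Suz12 1.92-fold (1.68 to 2.2) below Tet3, Tet3 1.32-fold (1.11 to 1.57) below Eed and Ezh1 2.72-fold (2.22 to 3.32) below Tet2. Counting error did not separate Dnmt1 from Ezh2, Ezh2 from Dnmt3b, Dnmt3b from Suz12, or Eed from Ezh1, whose gap was 1.15-fold (0.944 to 1.41). Scaling moved all 10 ratios by the same amount. With the median of 14 housekeeping genes set equal, 6 of the 10 genes were lower and 1 was higher. On that scale 1591 of all 13027 genes tested were lower and 6068 higher. Tet3 was then not called, at a log2 ratio of -0.24, Eed and Ezh1 stood at 0.16 and 0.36, and Tet2 was called higher at 1.81. The housekeeping genes themselves ranged from -2.12 to 3.21 with TMM. That scale adds 0.99 to every log2 ratio, which turns the medians of the PRC2 accessory, PRC1, methyl-CpG reader, repair and methyl donor lists positive and leaves those of the E2F, replication, mitosis and maintenance lists negative. Uhrf1, Dnmt3a, Dnmt1, Ezh2, Dnmt3b and Suz12 were called lower under each of the 5 scalings.

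**Figure D3:**
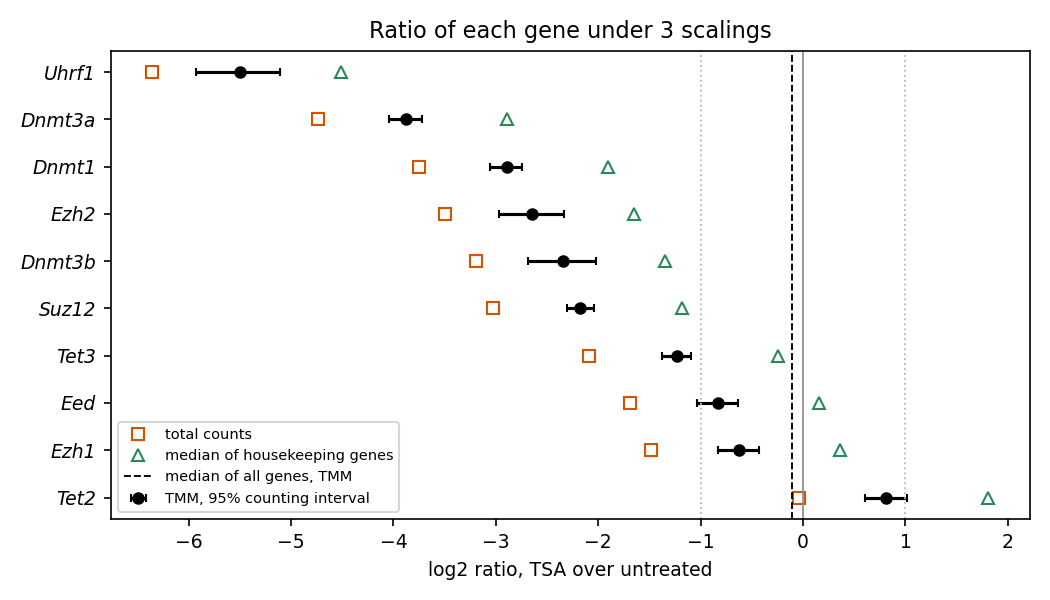
Log2 ratio of TSA over untreated for the 10 genes with TMM (black, 95% counting interval), total counts (squares) and the median of housekeeping genes (triangles); dotted lines mark a 2-fold difference. The lowest 6 genes, from Uhrf1 to Suz12, lie beyond 2-fold under all 3 scalings shown, and Tet2 lies between -0.04 and 1.81.

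Genes of DNA replication and mitosis were lower in the same comparison. Of 25 replication genes 23 were lower and none was higher, with a median log2 ratio of -3.22, and all 25 mitosis genes were lower (median -6.16). Mcm7, a helicase subunit gene, stood at 4.92 FPKM with TSA and 88.9 FPKM without, a level 10.01-fold (8.83 to 11.4) lower. The log2 ratio of Uhrf1 differed from the replication median by -2.28 and that of Dnmt3a by -0.66. Dnmt1 lay 0.33 above it, Ezh2 0.57, Dnmt3b 0.88 and Suz12 1.05, and Tet3, Eed, Ezh1 and Tet2 lay 1.99 to 4.04 above it. Of 13 genes of the E2F and RB family, which control entry into replication, 9 were lower and 1 was higher, with a median of -1.28. Tfdp1, the partner of E2F factors, was 6.6-fold (6.06 to 7.19) lower, E2f7 6.93-fold (4.53 to 11.1) lower and E2f4 3.62-fold (3.25 to 4.04) lower. The part of fewer dividing cells in the ratios of the 10 genes was not tested.

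**Figure D4:**
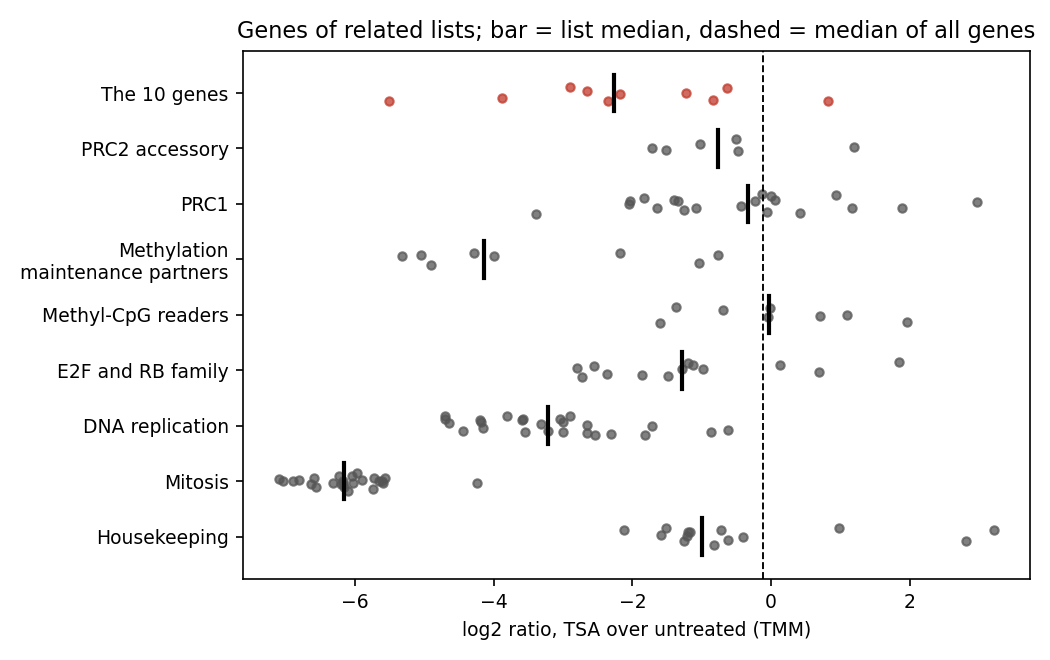
Log2 ratio of TSA over untreated (TMM) of each tested gene in 9 lists, 1 point per gene, with the median of each list (bar) and of all genes (dashed line, -0.11). The 10 genes (red) spread from -5.50 to 0.81. Their median of -2.26 lies between those of the replication list (-3.22) and the E2F and RB family list (-1.28).

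Of 20 genes of Polycomb repressive complex 1 (PRC1), which binds the PRC2 mark and ubiquitinates histone H2A, 9 were lower, 3 higher and 8 neither, with a median log2 ratio of -0.33; with total counts 11 were lower and 2 higher. Pcgf2, for a Polycomb RING finger subunit, was 10.5-fold (7.44 to 15.1) lower. Phc2 and Phc3, for polyhomeotic subunits, were neither. Among 5 tested genes for enzymes that remove the marks of PRC2 and PRC1, 3 were lower and none was higher. They were the demethylase gene Kdm6b at 2.07-fold (1.86 to 2.31), the deubiquitinase gene Bap1 at 2.02-fold (1.84 to 2.23) and its cofactor gene Asxl1 at 2.11-fold (1.91 to 2.33). All 3 lay close to the 2-fold line, at log2 ratios of -1.05, -1.02 and -1.08. With DESeq2 size factors, which add 0.105 to every log2 ratio, none of the 3 reaches 2-fold. By total counts 4 of the 5 were lower.

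Of 8 genes for proteins that read methylated CpG sites, 2 were lower, 2 higher and 4 neither, with a median of -0.03. Mbd3, whose product binds methylated CpG sites poorly, was 2.59-fold (2.37 to 2.82) lower, Mbd4, for a glycosylase, 3.05-fold (2.26 to 4.17) lower, and Zbtb4 3.9-fold (3.29 to 4.64) higher. Of 10 genes of the repair steps that can replace oxidised methylcytosine and of the GADD45 family, 5 were lower and 2 higher. Apex1, for the abasic site endonuclease, was 6.26-fold (5.62 to 6.97) lower, and Gadd45g, for a stress-inducible protein linked to demethylation, had 2694 counts with TSA and 7 without, 702-fold (340.4 to 1749) higher. Of 12 genes that supply or drain the methyl donor S-adenosylmethionine or the TET cofactor ketoglutarate, TMM gave 5 higher and 1 lower, and total counts gave 4 higher and 6 lower. Mat1a, the liver form of the methyl donor synthase, was 32.8-fold (31.8 to 33.8) higher and Gnmt, which consumes the donor, 40.0-fold (37.5 to 42.8) higher.

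Most textbook targets of PRC2, and most germline genes silenced by promoter methylation, had too few counts to compare. Of 27 PRC2 target genes 20 were not tested, and 13 had 0 counts with TSA and 14 without. The 7 that passed had to reach 20 counts summed over both libraries. Most of the list did not reach this minimum, so the direction of the 7 is no measure of the list. Tbx3, a T-box factor gene, had 309 counts (3.36 FPKM) with TSA and 11 (0.118 FPKM) without, and Gata6, a GATA factor gene, 133 counts (2.35 FPKM) with TSA and 14 (0.245 FPKM) without. Both passed the minimum only through their counts in the TSA library, so their direction is no measure of PRC2 targets either. The summed level of the whole list was 9.79 FPKM with TSA, much of it from Tbx3 and Gata6, and 2.57 FPKM without. Of 17 germline genes 15 were not tested and 13 had 0 counts with TSA and 11 without, and none exceeded 0.175 FPKM with TSA or 0.325 FPKM without. DNA methylation and histone marks themselves were not measured.

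Markers of several cell types differed between the libraries. All 14 hepatocyte markers were higher with TSA (13 by total counts), with a summed level of 63436 FPKM against 4669 FPKM without, and none was at 0. Of 12 endothelial markers 9 were higher and none lower with TMM, and 6 higher and 2 lower by total counts, at 154 FPKM with TSA and 68.3 FPKM without. All 6 erythroid markers tested, of 9 listed in the files, were higher under both scalings, at 423 FPKM with TSA and 151 FPKM without, with Gata1 at 0 in both libraries. The balance of 13 macrophage markers turned with scaling, from 5 higher and 2 lower with TMM to 3 higher and 5 lower by total counts, at 444 FPKM with TSA and 923 FPKM without. So did that of 8 cholangiocyte markers tested, with 4 higher and 3 lower against 3 higher and 4 lower, at 29.4 FPKM with TSA and 52.0 FPKM without. Among 12 stellate cell markers 7 were higher and 2 lower with TMM, and 6 higher and 4 lower by total counts, at 145 FPKM with TSA and 121 FPKM without. With TMM, lymphocyte markers were higher in 4 of 7 tested cases and lower in none (4 and 1 by total counts), and neutrophil markers in 3 of 3 (2 by total counts), at sums of 9.87 and 10.5 FPKM with TSA against 8.66 and 3.96 FPKM without. The part of cell type makeup in the ratios of the 10 genes was not tested.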

How the data were processed

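PolyA RNA from 2 mouse liver libraries, 1 per group, was analysed. Extraction used the mirVana kit, per the labels' protocols. The submitters' processing notes name Trimmomatic, HISAT2, Bowtie2 and DESeq, with neither role nor version. The build, the annotation, the counter and its use of strand are not given in the sources used. The deposited counts are whole reads per gene symbol, unscaled, as the values show. The deposited FPKM are those counts per gene model length and library total. Both libraries implied 1 and the same whole length (tolerance 0.1 base) for each of the 14271 genes counted in both. Those lengths differ from GENCODE M21 exon lengths (Ezh1: 4212 against 7440 bases), so levels between genes rest on the authors' gene models, while differences between libraries do not.

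TMM factors came from edgeR 4.0.16 (0.744 for TSA and 1.34 for untreated) and moved every log2 ratio by 0.85 relative to total counts. Genes with at least 20 counts summed over both libraries were tested by size alone, with exact conditional binomial 95% intervals. Balances of 2 genes used the exact conditional odds ratio, and shares the Clopper-Pearson interval carried to the per-length scale. A gene with 0 counts in 1 library was set to a floor of 3 counts for its ratio. Alternatives were DESeq2 1.42.0 size factors, upper quartiles, total counts, housekeeping genes, FPKM with 0.1 added, other count minimums and call sizes, and thinning of the untreated library to the total of the other. Calling was tested on simulated data that held counting error only, from a shared profile scaled by library totals. That test covers neither spread between animals nor the TMM scaling. Software was R 4.3.3 and Python 3.11.15 with scipy 1.17.1, numpy 2.4.6, matplotlib 3.10.9 and pandas 2.3.3.

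The 10 genes and the lists were chosen with earlier results of these data known. The genes named are the 10, Rbbp4, Rbbp7, Tet1, Dnmt3l and the accessory PRC2 subunits, and from each other list members that rank in the first 2 by counts or by size of difference, at 50 or more summed counts; Alb and Apob fall under the same rule, and Gata1 is named outside it as a marker at 0. 1 gene that the rule selects is not reported here. Pclaf and Epop were matched through older symbols. Exons of Ezh2, Eed, Suz12, Dnmt3a and Tet2 overlap genes on the opposite strand in GENCODE M21, by 0.3% to 6.8% of their exon bases.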

Additional observations from a re-analysis of the deposited data

How the results depend on the processing

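Across 11 alternatives to TMM scaling, 20 summed counts and a 2-fold call, the number of the 10 genes called lower stayed between 6 and 9, against 7. Several alternatives had little or no room to move this number. The other count minimums could drop none of the 10, which each had at least 399 counts in the untreated library. Thinning removed few counts because the library totals were close, and FPKM plus 0.1 keeps the scale of total counts. The number called higher was 0 except for 1 gene, Tet2, with housekeeping genes as the scale or at 1.5-fold. With total counts 2084 of all genes were higher and 6339 lower, with housekeeping genes 6068 and 1591, with FPKM plus 0.1 they were 1983 and 6186, and at 4-fold 1951 and 1640. The balances of Ezh1 to Ezh2 and of Dnmt3a to Dnmt1 were recomputed only with FPKM plus 0.1 and after thinning, because scaling cannot move them. They were 3.91 and 4.06 for Ezh1 to Ezh2 and 0.519 and 0.506 for Dnmt3a to Dnmt1, inside their counting intervals. Both changes are small and leave a balance little room to move. Of 60 recomputed ratios of the 10 genes, 30 stayed inside their counting interval, 30 moved beyond it, those under total counts, FPKM and housekeeping genes, and no called gene changed sign. No paired analysis was possible because each group has 1 library, and for the same reason no replicate could be left out. Counts with TSA were 52 to 529 for the 10 genes, which limits the precision of Uhrf1, Dnmt3b and Ezh2 most.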
